A study of Homo sapiens with 16 samples.

Results

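The genes described here encode the proteins of the cytosolic ribosome. They were taken by symbol: RPL or RPS followed by a number, with an optional letter A, X or L and digit, together with the stalk genes RPLP0, RPLP1 and RPLP2 and the gene RPSA. The array annotation gave a usable probe set for 74 such genes out of 18239 genes in all, and 73 of them were among the 13680 genes bright enough to be tested. They comprise 24 small-subunit genes, 41 large-subunit genes, 2 genes of the P stalk and 7 paralogs (RPL3L, RPL7L1, RPL10L, RPL22L1, RPL26L1, RPL39L and RPS27L). The rule uses gene symbols alone, and each gene is represented by its brightest probe set with a single gene symbol.

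The study exposed SK-N-SH, an established human neuroblastoma line, to risperidone, an antipsychotic that blocks dopamine and serotonin receptors, and measured total RNA on 1-colour Human Genome U219 arrays. There were 4 groups of 4 arrays: untreated cells, and cells kept with 10 µM risperidone for 6, 24 or 48 h. All were SK-N-SH cells grown for 48 h to 95% confluence, and the protocol gives controls the DMSO solvent (at most 1% by volume) although the sample names call them untreated. The labels call the arrays of a group biological replicates without describing separate cultures, so the p-values measure the spread between these arrays. No harvest time is given for the controls, so the same 4 arrays are the reference for every exposure time, and changes with time in culture cannot be told apart from changes with exposure.

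A ribosome needs nearly all of its proteins in matched amounts, with the stalk proteins in more copies than the others, and cells coordinate their supply. A large part of that control lies in translation: most ribosomal protein mRNAs begin with a terminal oligopyrimidine (TOP) motif, a C followed by an unbroken run of C and T, through which mTOR and the RNA-binding protein LARP1 set whether the mRNA is translated. Proliferating tumour cells devote a major share of their transcription and translation to ribosomes. Several ribosomal protein genes have a close paralog elsewhere in the genome, whose expression is often restricted to a tissue or responds to signals that the main gene does not.

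Most ribosomal protein genes read slightly higher after risperidone (positive differences in 63, 67 and 65 of 73 at 6, 24 and 48 h). So did most of all genes tested (9069, 9069 and 8445 of 13680). The 3 paralogs RPL22L1, RPS27L and RPL26L1 were lower at every time. At 6 h, 16 of 73 were higher and 3 lower than in untreated cells, at 24 h 16 were higher and 3 lower, and at 48 h 28 were higher and 5 lower (limma, adjusted p of 0.05 over all genes tested). The same rule called 53.3% of all genes tested at 6 h, 52.1% at 24 h and 57.0% at 48 h, and 26.0%, 26.0% and 45.2% of the ribosomal protein genes. Over all genes, 36.6% were higher and 16.7% lower at 6 h, 35.3% and 16.9% at 24 h, and 36.0% and 21.0% at 48 h. The median difference of the 73 genes was 0.0675 at 6 h, 0.0775 at 24 h and 0.09 at 48 h, beside 0.0925, 0.0875 and 0.075 over all genes tested.

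The number of rises depended on how the arrays were scaled, and the falls much less. Cyclic loess, refitting each array's scale along its brightness range, left 5 rises at 6 h, 5 at 24 h and 23 at 48 h. Centring each array on the brightest 10% of genes, with the ribosomal protein genes left out of that 10%, left 5, 4 and 17. Over all genes, higher calls made up 68.7%, 67.6% and 63.1% of calls at 6, 24 and 48 h as deposited, 46.2%, 46.2% and 47.4% after cyclic loess, and 58.1% at 6 h on the brightest 10%. The rises also leaned on single arrays: 10 were left at 6 h without untreated replicate 4, and 10 at 24 h without untreated replicate 1.

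The per-array median of the 73 genes was 13.21, 13.33, 13.32 and 13.26 in the untreated arrays. It was 13.35 to 13.37 at 6 h, 13.33 to 13.38 at 24 h, and 13.4, 13.4, 13.39 and 13.33 at 48 h. The untreated arrays were the lower ones, yet untreated replicate 2 reached the lowest treated arrays. In 23 genes at 6 h, 24 at 24 h and 21 at 48 h all 4 treated arrays lay above all 4 untreated arrays, as they did in 30.9%, 31.1% and 30.0% of all genes tested. All 4 lay below in 3, 3 and 4 genes, against 14.8%, 15.2% and 17.8% of all genes.

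These genes sit at the top of the measured scale, which bears on how their changes read. Array signals flatten as probes approach saturation, and the log2 values in the whole table ended at 13.98, with array maxima of 13.79 to 13.98. Of the 74 genes, 56 had a mean of at least 13, among 86 genes tested that did so in all. The median mean of the ribosomal protein genes was 13.4, and only 11 lay under 12. Of the chosen probe sets, 39 carry the suffix that marks probes matching other transcripts as well and 23 the suffix for probe sets shared between related transcripts. Ribosomal protein genes are known for many processed pseudogenes of near-identical sequence, so a value may sum several sources.

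**Figure D1:**
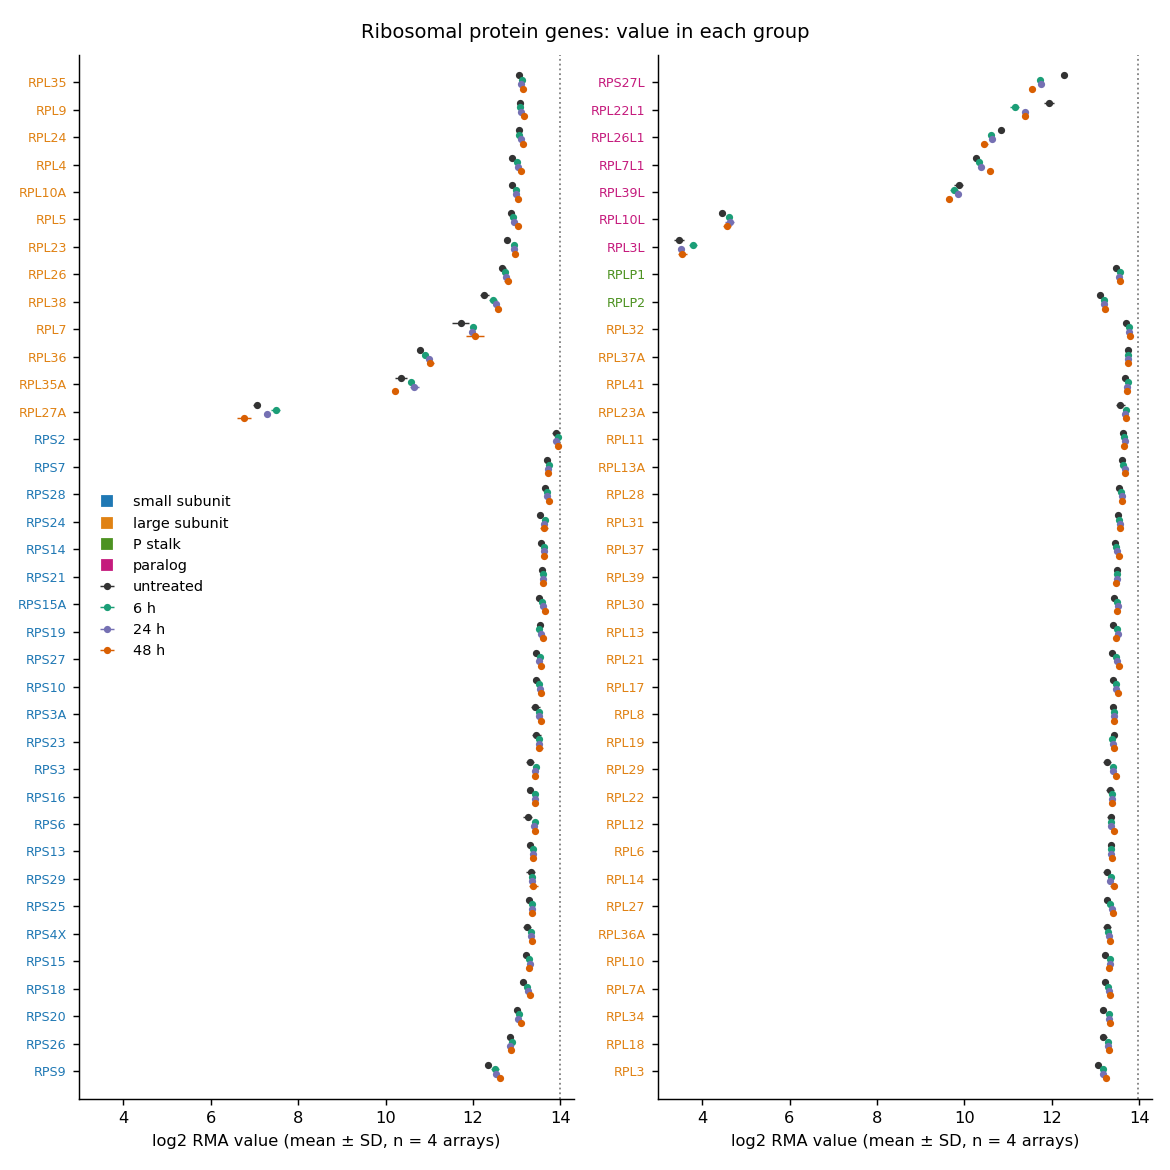
Mean log2 RMA value of each of the 74 genes in untreated cells and after 6, 24 and 48 h (points, with SD over 4 arrays), with the highest value of the table, 13.98, as a dotted line. Most genes crowd against that line, and the paralogs, RPL27A, RPL35A and RPL36 lie below it.

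**Figure D2:**
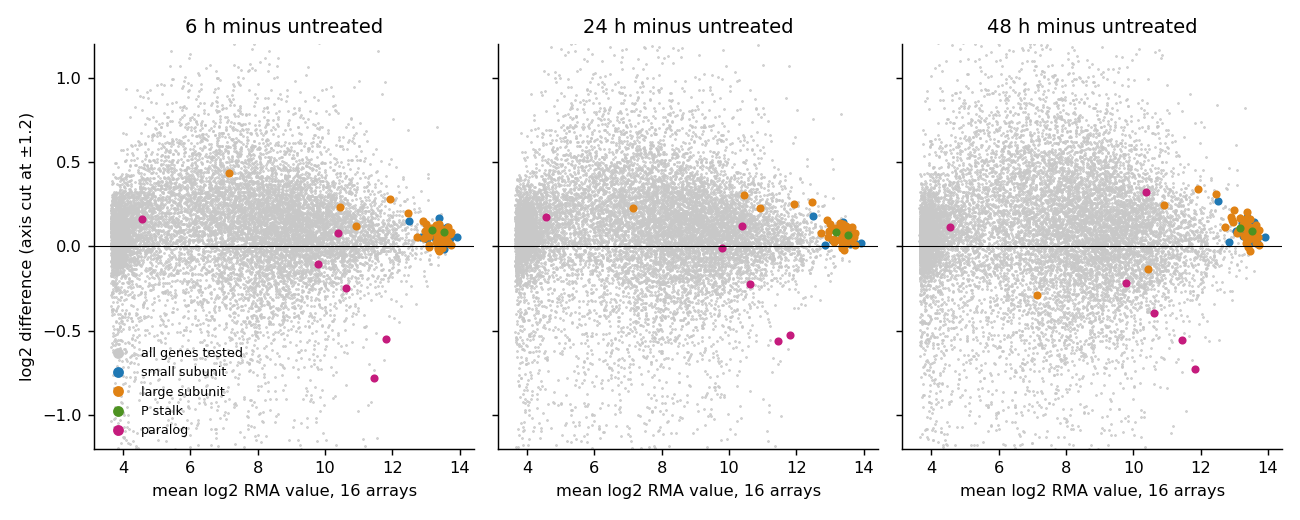
Difference from untreated (log2) against the mean over 16 arrays for all 13680 genes tested (grey) and the ribosomal protein genes by class. The genes of both subunits and the stalk form a tight cluster just above 0 at the bright end, while RPL22L1, RPS27L and RPL26L1 lie below 0 at all 3 times.

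Among the ribosomal protein genes with means of 9 or more, calls became fewer with height on the scale, but height was mixed with gene class. Of the 8 ribosomal protein genes with means of 9 to 12, 62.5%, 87.5% and 87.5% were called at 6, 24 and 48 h, and of the 7 at 12 to 13, 42.9%, 42.9% and 71.4%. The genes at 9 to 12 include the paralogs RPL22L1, RPS27L, RPL26L1, RPL39L and RPL7L1. Of the 56 at 13 to 14, 16.1%, 12.5% and 35.7% were called, beside 43.3%, 43.3% and 53.3% of the 30 other genes in that range. Of other genes at 9 to 12, 56.8%, 56.1% and 64.8% were called, and at 12 to 13, 40.8%, 37.1% and 48.4%. Their calls thus did not become fewer from 12 to 13 to 13 to 14. The sizes of other genes' changes narrowed with height too: their median absolute difference at 48 h was 0.295 at means of 5 to 9, 0.19 at 9 to 12 and 0.1025 at both 12 to 13 and 13 to 14, and that of the ribosomal protein genes at 13 to 14 was 0.0838. How much of the small change in the ribosomal protein genes the end of the scale accounts for was not tested.

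Of the 24 small-subunit genes, 5 were higher at 6 h, 2 at 24 h and 6 at 48 h, none was lower, and the median difference was 0.07, 0.0775 and 0.0875. RPS9, whose protein lies near the mRNA entry of the small subunit, read 12.38, 12.37, 12.3 and 12.37 in untreated arrays, 12.4, 12.58, 12.56 and 12.48 at 6 h, 12.49, 12.57, 12.54 and 12.53 at 24 h, and 12.66, 12.6, 12.67 and 12.57 at 48 h. Every treated array exceeded every untreated array at all 3 times. Its differences were 0.15 ± 0.0462 (± is limma's standard error, here and below), 0.18 ± 0.0462 and 0.27 ± 0.0462, with adjusted p = 0.0118, 0.00389 and 8.22e-05.

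RPS6, the protein that S6 kinase phosphorylates downstream of mTOR, read 13.19, 13.34, 13.34 and 13.15 in untreated arrays, 13.41 to 13.44 at 6 h, 13.38 to 13.41 at 24 h and 13.44, 13.46, 13.46 and 13.35 at 48 h. The groups did not overlap at any time, although the untreated arrays themselves spread over more than the difference between the nearest arrays. It was higher by 0.17 ± 0.0477, 0.14 ± 0.0477 and 0.17 ± 0.0477 (adjusted p = 0.00714, 0.0191 and 0.0051). A second probe set of RPS6, at a mean of 12.6, differed by 0.0725, 0.085 and 0.195 and was called at 48 h only. RPS27, a zinc-finger protein of the small subunit, was higher at 6 h by 0.10 ± 0.0371 (adjusted p = 0.0282) and at 48 h by 0.11 ± 0.0371 (adjusted p = 0.02). RPS3, at the mRNA entry channel, was higher at 6 h by 0.13 ± 0.0455 (adjusted p = 0.0292) and at 48 h by 0.11 ± 0.0455 (adjusted p = 0.0401), with overlapping arrays each time.

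RPS19, the gene most often mutated in Diamond-Blackfan anaemia, differed by -0.015, 0.0275 and 0.06 and passed the test at no time. RPS4X, the X-linked small-subunit gene, differed by 0.10, 0.10 and 0.12 ± 0.052 and also did not pass (adjusted p = 0.118, 0.11 and 0.0543). RPS2, the brightest gene at 13.9, read 13.79, 13.89, 13.98 and 13.89 in untreated arrays and 13.89 to 13.98 in treated arrays, which overlapped throughout. The list of Diamond-Blackfan anaemia genes held 17 tested genes from both subunits. Of these, 2, 1 and 6 (11.8%, 5.88% and 35.3%) were higher at the 3 times and none was lower. Of all genes tested, 36.6%, 35.3% and 36.0% were higher and 16.7%, 16.9% and 21.0% lower.

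The large subunit held more of the rises and also more of the genes. Of its 41 genes, 10 (24.4%) were higher at 6 h, 12 (29.3%) at 24 h and 20 (48.8%) at 48 h. The shares higher were 20.8%, 8.33% and 25% of small-subunit genes, and 36.6%, 35.3% and 36.0% of all genes tested. In the large subunit 1 gene (RPL27A) was lower, at 48 h, and the median differences were 0.065, 0.0775 and 0.0925. Whether large-subunit genes rose more often than small-subunit genes was not tested. As deposited, RPL3, RPL4, RPL7, RPL10, RPL23, RPL29, RPL34, RPL38, RPS6 and RPS9 were higher at each of the 3 times. Not all of them stayed so after cyclic loess, which left 5 ribosomal protein genes higher at 6 h and 5 at 24 h.

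RPL38, a small protein known for a part in translating Hox mRNAs, read 12.14, 12.24, 12.41 and 12.26 in untreated arrays. It read 12.33, 12.52, 12.54 and 12.46 at 6 h, 12.52, 12.51, 12.57 and 12.5 at 24 h, and 12.61, 12.64, 12.55 and 12.49 at 48 h. Treated arrays overlapped the untreated ones at 6 h and cleared them at 24 and 48 h. The differences were 0.20 ± 0.0594, 0.26 ± 0.0594 and 0.31 ± 0.0594 (adjusted p = 0.0094, 0.00132 and 0.000248), and RPL38 was also called after cyclic loess at all 3 times (0.15, 0.21 and 0.28). Its other probe set, at a mean of 11.4, gave smaller differences of 0.035, 0.105 and 0.15 (adjusted p = 0.625, 0.126 and 0.0283), so the rises at 6 and 24 h rest on the brighter one.

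RPL7, an RNA-binding protein of the large subunit, had the largest difference at 48 h among the genes that rose, 0.34 ± 0.0946 (adjusted p = 0.00534), after 0.28 at 6 h and 0.25 at 24 h. Its arrays scattered widely. Untreated arrays read 11.54, 11.8, 11.95 and 11.57, and the 48 h arrays 12.09, 12.21, 12.16 and 11.76, so the groups overlapped. RPL4, which lines the exit tunnel, differed by 0.13, 0.13 and 0.22 ± 0.042, and RPL29, a heparin-binding protein, by 0.13, 0.14 and 0.20 ± 0.0432. At 48 h their adjusted p was 0.000265 and 0.000666, and their arrays stood above all untreated arrays.

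RPL23, which can bind MDM2, was higher by 0.1525, 0.155 and 0.175 ± 0.0435, and RPL36 by 0.12, 0.225 and 0.2475 ± 0.0511, the first of which did not pass. RPL3, at the peptidyl transferase centre, differed by 0.11, 0.11 and 0.17 ± 0.0418, and RPL34 by 0.12, 0.14 and 0.15 ± 0.0408. RPL10, which helps to complete the large subunit, differed by 0.13, 0.12 and 0.11 ± 0.0405. RPL3, RPL10 and RPL36 depended on the probe set. The dimmest tested probe set of RPL3, at a mean of 3.86, close to the lowest level tested, gave -0.225 at 6 h. Its other probe set, at 12.9, differed by 0.0875, 0.045 and 0.1475, called at 48 h only. The dimmest tested probe set of RPL10, at 7.5, gave -0.0075 at 6 h, and one at 7.66 gave -0.22. Those at 13.27 and 13.18 gave 0.095 and 0.09 at 6 h, without a call. The next probe set of RPL36, at a mean of 10.6, differed by -0.005, 0.0475 and 0.1125 with no call (adjusted p = 0.953, 0.538 and 0.12), and its dimmest, at 7.4, by 0.315, 0.3375 and 0.095, called at 6 and 24 h.

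The 5S particle proteins RPL5 and RPL11 bind MDM2 when ribosome assembly stalls. RPL5 was higher at 48 h, by 0.155 ± 0.0504 (adjusted p = 0.0143), with every 48 h array above the untreated range of 12.83 to 12.95. Another probe set of RPL5, at a mean of 12.6, was called higher at each time, by 0.245, 0.2775 and 0.3375. RPL11 differed at 48 h by 0.02 ± 0.0389 on its brightest probe set (adjusted p = 0.683). Its other probe set, at a mean of 13.03, differed by 0.055, 0.0975 and 0.15 and was called higher at 48 h (adjusted p = 0.0149). Whether the changes of RPL5 and RPL11 differed from each other was not tested. RPL13A, which can leave the ribosome to silence inflammatory mRNAs, differed by 0.0725 ± 0.039 at 48 h, and RPL41, the shortest ribosomal protein, by 0.0575 ± 0.038, neither past the test on its brightest probe set. Their other probe sets were called higher at each time. That of RPL13A, at a mean of 12.98, differed by 0.1775, 0.18 and 0.2275, and that of RPL41, at 11.85, by 0.175, 0.29 and 0.405. RPL32 passed at 48 h (0.095 ± 0.0393, adjusted p = 0.0484) and RPL37A, almost at the top of the scale, differed by 0.01 at each time.

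Of the 8 proteins around the tunnel exit, none was called at 6 or 24 h and 3 (37.5%) were higher at 48 h. Of the 21 tested genes whose introns carry small nucleolar RNAs, 6, 6 and 11 were higher (28.6%, 28.6% and 52.4%). Among the same 21, 0, 0 and 1 were lower. Over all genes tested, 36.6%, 35.3% and 36.0% were higher and 16.7%, 16.9% and 21.0% lower. The P stalk proteins RPLP1 and RPLP2, acidic proteins that recruit elongation factors, differed by 0.085 and 0.095 at 6 h, 0.07 and 0.085 at 24 h, and 0.09 and 0.11 at 48 h. Only RPLP2 at 48 h passed (adjusted p = 0.0315). RPLP0 and RPSA were not analysed here.

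Apart from paralogs, 4 large-subunit genes had a mean under 12: RPL7 and RPL36, described above, and RPL27A and RPL35A, which were higher at 6 and 24 h and not at 48 h. RPL27A is represented by a single probe set with a mean of 7.14, far under the median of 13.4 over the ribosomal protein genes. Which transcripts this probe set measures cannot be told here. RPL27A read 6.95, 7.1, 7.14 and 7.01 in untreated arrays and 7.52, 7.56, 7.53 and 7.33 at 6 h. It read 7.36, 7.31, 7.25 and 7.2 at 24 h, and 6.94, 6.63, 6.61 and 6.87 at 48 h. All 6 h and 24 h arrays were above the untreated arrays and all 48 h arrays were below them. The differences were 0.43 ± 0.0759 (adjusted p = 0.000129), 0.23 ± 0.0759 (adjusted p = 0.0176) and -0.29 ± 0.0759 (adjusted p = 0.00366), and the change from 6 h to 48 h was -0.72 ± 0.0759 (adjusted p = 2.45e-06).

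RPL35A followed a like course, at a mean of 10.5. Untreated arrays read 10.16, 10.41, 10.47 and 10.36, the 6 h arrays 10.54, 10.54, 10.59 and 10.66, the 24 h arrays 10.75, 10.69, 10.67 and 10.52, and the 48 h arrays 10.21, 10.15, 10.28 and 10.22. The differences were 0.23 ± 0.0645, 0.31 ± 0.0645 and -0.135 ± 0.0645 (adjusted p = 0.00604, 0.000701 and 0.0852), and from 24 to 48 h it fell by 0.44 (adjusted p = 8.31e-05). Another probe set of RPL35A, at a mean of 8.07, did not turn: it differed by 0.525, 0.555 and 0.6125, so the probe sets of this gene disagree at 48 h.

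On the brightest probe set of each gene, the largest differences at each time, up or down, were those of RPL22L1 and RPS27L, and RPL26L1 fell with them. RPL22L1, the paralog of RPL22 that can replace it in the ribosome and whose expression RPL22 is known to restrain, read 11.98, 11.96, 12.02 and 11.78 in untreated arrays. It read 11.21, 11.19, 11.21 and 11 at 6 h, 11.37, 11.35, 11.44 and 11.34 at 24 h, and 11.46, 11.37, 11.34 and 11.36 at 48 h. No treated array reached the untreated range. RPL22L1 fell by 0.78 ± 0.0592, 0.56 ± 0.0592 and 0.55 ± 0.0592 at the 3 times in turn (adjusted p = 7.23e-09, 5.05e-07 and 4.22e-07), and it was higher at 48 h than at 6 h by 0.23 ± 0.0592 (adjusted p = 0.00644).

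RPS27L, a paralog of RPS27 known as a target of p53, read 12.18, 12.28, 12.34 and 12.29 in untreated arrays. It read 11.76, 11.73, 11.68 and 11.73 at 6 h, 11.74, 11.76, 11.69 and 11.8 at 24 h, and 11.55, 11.63, 11.56 and 11.45 at 48 h. Each group lay wholly below the untreated one, and the 48 h arrays below those of 6 and 24 h. RPS27L fell by 0.55 ± 0.0478, 0.53 ± 0.0478 and 0.73 ± 0.0478 (adjusted p = 4.64e-08, 7.87e-08 and 8.84e-10), with a further fall of 0.20 from 24 to 48 h (adjusted p = 0.00466).

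RPL26L1, a near-copy of RPL26, read 10.81, 10.81, 10.9 and 10.87 in untreated arrays. It read 10.57, 10.62, 10.62 and 10.59 at 6 h, 10.6, 10.66, 10.62 and 10.61 at 24 h, and 10.46, 10.45, 10.55 and 10.36 at 48 h. There was again no overlap with untreated cells. RPL26L1 fell by 0.25 ± 0.044, 0.23 ± 0.044 and 0.39 ± 0.044 (adjusted p = 0.000156, 0.000377 and 7.3e-07), and from 24 to 48 h by 0.17 (adjusted p = 0.00864). These 3 paralogs were called lower under each of the scalings tried.

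The other paralogs did not share that course. RPL39L, known from testis and some tumours, read 9.72, 9.88, 9.93 and 9.93 in untreated arrays and 9.74, 9.65, 9.62 and 9.57 at 48 h, which overlapped by 1 array, and fell by 0.22 ± 0.0576 at 48 h alone (adjusted p = 0.00347). RPL7L1, a relative of RPL7 linked to large-subunit assembly, read 10.19, 10.25, 10.26 and 10.32 in untreated arrays and 10.6, 10.55, 10.61 and 10.54 at 48 h. It was higher at 24 h by 0.12 ± 0.0413 (adjusted p = 0.0198) and at 48 h by 0.32 ± 0.0413 (adjusted p = 3.78e-06), but its next probe sets, at means of 10.1 and 9.9, differed at 48 h by 0.05 and -0.07. RPL10L, the testis-expressed copy of RPL10, lay near the bottom of the scale at 4.57 and was called higher at 6 h (0.1625 ± 0.0595) and 24 h (0.1725 ± 0.0595), calls lost after cyclic loess. RPL3L, the striated-muscle copy of RPL3, was too dim to be tested, at a mean of 3.59 under the limit of 3.65.

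RPL22, RPL26 and RPL39, the main genes of 3 of these pairs, passed the test at no time on their brightest probe set, whereas RPL3, RPL7 and RPL10 were higher at each time, as given above. RPL22 read 13.2, 13.41, 13.37 and 13.3 in untreated arrays and 13.31 to 13.45 at 48 h, a difference of 0.0475 ± 0.0511 (adjusted p = 0.449). RPL26 read 12.56 to 12.77 and then 12.7 to 12.89, a difference of 0.115 ± 0.0558 (adjusted p = 0.0899), and RPL39 differed by -0.0275 ± 0.0407 (adjusted p = 0.587). RPS27 was higher at 6 and 48 h, as given above. These 4 main genes average 12.7 to 13.5, whereas their paralogs average 9.78 to 11.8, so the sizes of the changes within a pair are not measured on equal terms. Dimmer probe sets of RPL22, at means of 12.1 and 12, differed by 0.46 and 0.43 at 48 h and were called higher. The other probe set of RPL39, at a mean of 12.5, was called higher at each time, by 0.215, 0.2225 and 0.26.

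**Figure D3:**
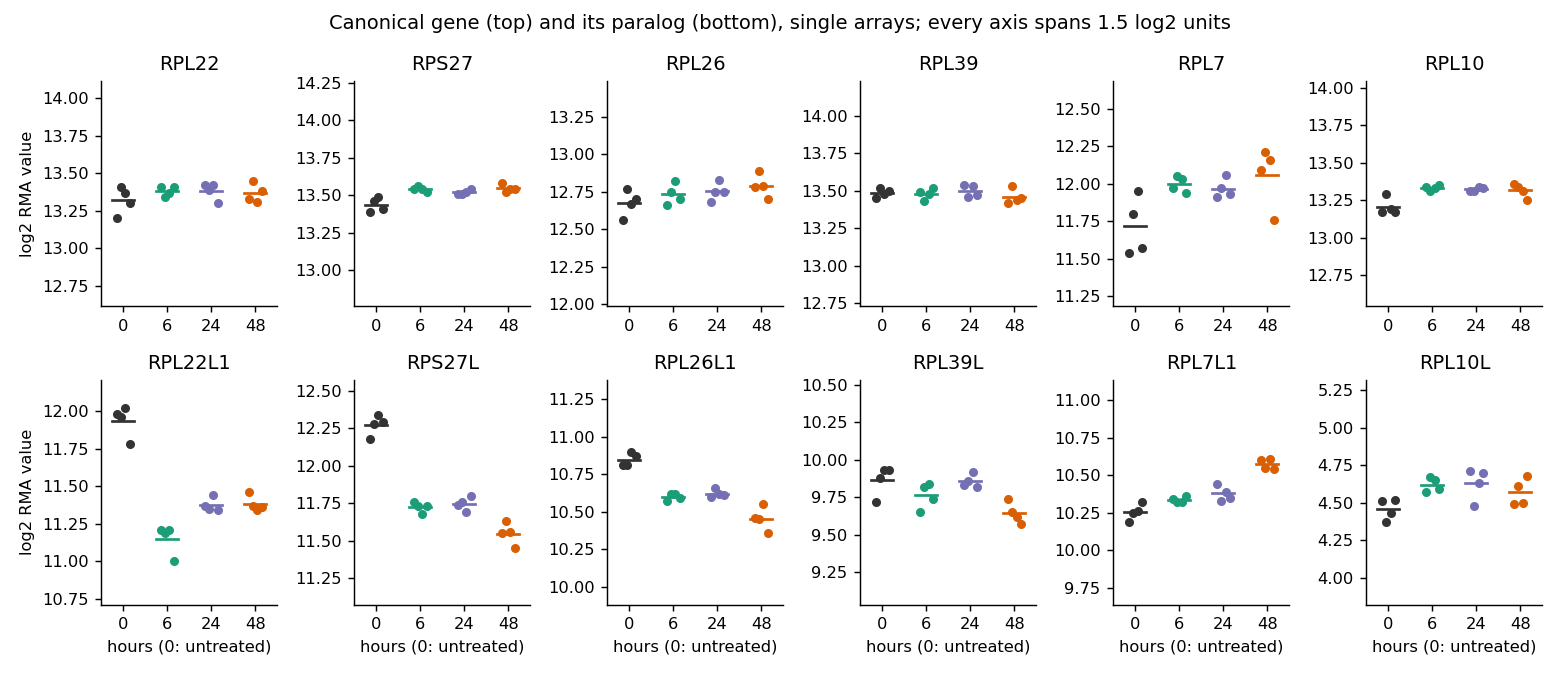
Log2 RMA values of single arrays (points, with the group mean as a line) for 6 main genes (top) and their paralogs (bottom), untreated cells shown at 0 h and every axis spanning 1.5 log2 units. RPL22L1, RPS27L and RPL26L1 drop at 6 h without overlap with untreated arrays, while RPL22, RPS27 and RPL26 change little on the same span.

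The starts of these genes differ in sequence as well. RefSeq (build GRCh38.p14) held a promoter entry for 62 of the 74 genes. An annotated start with a C at the first transcribed base, within a run of at least 5 bases of C or T, was found in 43 of the 62 genes and in 58.1% of their 74 entries, against 4.07% of 35116 promoters. Of 5 paralogs with an entry only RPL22L1 had such a start, against 42 of the other 57 genes. The 3 falling paralogs and their main genes are printed 5′ to 3′, from 35 bases before the annotated start to 25 bases from it on, with the TOP-like run from the start in capitals.

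RPL22 (chr1:6199571-6199630, minus strand): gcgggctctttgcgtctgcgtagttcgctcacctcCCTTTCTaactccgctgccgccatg
RPL22L1 (chr3:170870171-170870230, minus strand): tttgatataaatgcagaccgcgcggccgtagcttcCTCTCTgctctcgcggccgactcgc
RPS27 (chr1:153990727-153990786, plus strand): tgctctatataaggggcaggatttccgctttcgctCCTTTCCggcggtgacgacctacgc
RPS27L (chr15:63157453-63157512, minus strand): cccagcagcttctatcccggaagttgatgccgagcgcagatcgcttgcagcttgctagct
RPL26 (chr17:8383169-8383228, minus strand): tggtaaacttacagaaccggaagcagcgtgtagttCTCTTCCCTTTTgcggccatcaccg
RPL26L1 (chr5:172958694-172958753, plus strand): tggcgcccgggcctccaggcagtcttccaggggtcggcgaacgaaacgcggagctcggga

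RPL22, RPS27 and RPL26 carry runs of 7, 7 and 12 pyrimidines at the start, RPL22L1 a run of 6, and RPS27L and RPL26L1 none (for RPL26L1 the first of 2 annotated starts is shown, and the other had none either). RPL22L1 fell with a TOP-like annotated start, as RPS27L and RPL26L1 fell without it. Of the 10 genes higher at all 3 times as deposited, 8 had an entry. Among the 8, 6 had a TOP-like start in at least 1 entry. RPS6, RPL29 and RPL38 are shown as genes with such a start, and RPL3 and RPL4 as the ones without it.

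RPS6 (chr9:19380212-19380271, minus strand): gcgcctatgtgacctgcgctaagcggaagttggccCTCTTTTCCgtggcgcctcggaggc
RPL29 (chr3:51995871-51995930, minus strand): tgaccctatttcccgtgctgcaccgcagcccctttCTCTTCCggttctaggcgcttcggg
RPL38 (chr17:74203643-74203702, plus strand): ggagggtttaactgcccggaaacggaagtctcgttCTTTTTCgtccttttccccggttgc
RPL3 (chr22:39319599-39319658, minus strand): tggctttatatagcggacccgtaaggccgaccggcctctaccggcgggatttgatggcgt
RPL4 (chr15:66504831-66504890, minus strand): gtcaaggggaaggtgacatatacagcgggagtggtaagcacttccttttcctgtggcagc

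RPS6, RPL29 and RPL38 start with runs of 9, 7 and 7 pyrimidines, while RPL3 has a run of 4, too short to be counted, and RPL4 none at the annotated start. Rises at all 3 times thus occurred with and without a TOP-like run at an annotated start. Where these mRNAs start in SK-N-SH cells was not measured. In windows of 300 bases, on either strand, the letters CCGGAAG, which ETS-family factors can bind, occurred in 36.5% of the ribosomal protein entries and 10.3% of all promoters, TATAAA in 8.11% and 11.5%, and CACGTG, the E-box of MYC, in 6.76% and 7.26%. CACGTG reads the same on both strands, and none of the motifs contains another. A match describes the letters in the window, and the array does not measure translation.

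Many dimmer probe sets of the same genes gave larger differences than the bright ones chosen. In all, 58 genes had more than 1 of the 207 probe sets, and 194 probe sets were bright enough to be tested singly. Of these, 60 were higher and 5 lower at 6 h, 60 and 4 at 24 h, and 87 and 10 at 48 h, while 31.4% and 15.7%, 30.7% and 16.6%, and 33.0% and 20.5% of all single probe sets were (47.1%, 47.3% and 53.6% in either direction). The share of probe sets higher at 6 h was 67.7% of 31 at means of 5 to 9 and 15.6% of 96 at 13 to 14. For other genes the shares in these ranges were 38.8% and 15.6%, the last over 45 probe sets.

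Within single genes a gap appeared between the chosen probe set and dimmer ones. In 9 genes whose chosen probe set averaged at least 13 and which had another at 9 to 12, the median difference was 0.055 for the chosen and 0.335 for the other at 6 h, 0.0575 and 0.4225 at 24 h, and 0.0675 and 0.435 at 48 h. The dimmer one was the higher in 8, 9 and 8 of the 9 genes. With the other probe set at 12 to 13 (15 genes), the medians at 48 h were 0.0825 and 0.1625, and at 5 to 9 (13 genes) 0.0825 and 0.4425. These ranges were set with the data in view, no test was run on the gap, and dimmer probe sets may measure other transcripts of a gene.

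Examples, chosen after their values were seen, show its size. RPL28 averaged 13.5 in untreated arrays and 13.6 at 48 h on its brightest probe set, a difference of 0.0675 ± 0.042, whereas a probe set for transcripts of this gene alone went from 9.79 ± 0.0789 to 10.96 ± 0.0909 (SD, n = 4), a rise of 1.17 ± 0.0544 (adjusted p = 8.42e-12). RPS29 differed by 0.055 ± 0.0598 on its brightest probe set and by 1.23 ± 0.0657 on one at a mean of 8.64 (adjusted p = 4.99e-11). RPL32 gave 0.095 on its brightest probe set, 0.72 on one at 8.37 and 1.14 on one at 6.98.

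RPL13 gave 0.075 and 0.555, RPL41 0.0575 and 0.405, and RPS15A 0.145 and 0.6825 in the same comparison at 48 h. Some probe sets went against it. Both dimmer probe sets of RPS14, at means of 11, fell at 48 h, by 0.305 (adjusted p = 0.000104) and 0.2225 (adjusted p = 0.00246), where the brightest differed by 0.075. A probe set of RPL37A at 6.06 fell by 0.5275 at 48 h, with an SD of 0.504 among untreated arrays. Probe sets of RPL37A at means of 8.963 and 8.956 were called higher at 48 h, by 0.515 and 0.4425, where the brightest differed by 0.01.

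**Figure D4:**
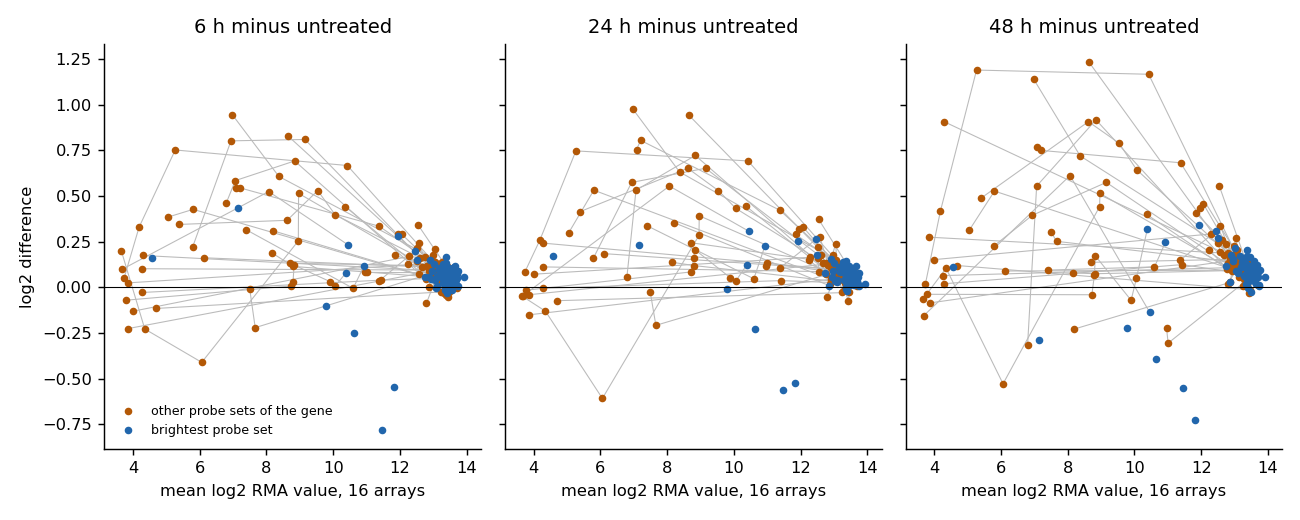
Difference from untreated (log2) of every tested probe set of the ribosomal protein genes against its mean over 16 arrays, the brightest of each gene in blue, the others in brown, lines joining probe sets of 1 gene. Differences reach 1.23 at means of 5 to 11 and close in toward 0 above 13.

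Between exposure times few ribosomal protein genes were called. From 6 to 24 h none of 73 was called, where 2.40% of all genes were (1.55% higher and 0.855% lower), and 2 had an unadjusted p under 0.05 (limma); with eBayes trend and robust options 1 was called. From 24 to 48 h 1 was higher (RPL7L1) and 5 lower (RPS27L, RPL26L1, RPL39L, RPL27A and RPL35A), 8.22% where 28.6% of all genes were called (13.5% higher, 15.1% lower). From 6 to 48 h 2 were higher (RPL7L1 and RPL22L1) and 4 lower (RPS27L, RPL26L1, RPL27A and RPL35A), 8.22% against 33.6% (16.7% higher, 17.0% lower). The 24 small-subunit genes and the 2 stalk genes had no call between times. Without 48 h replicate 4, 2 were higher from 24 to 48 h and 5 from 6 to 48 h.

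The counts for genes that work with the ribosomal proteins stand beside the 36.6%, 35.3% and 36.0% of all genes that were higher at 6, 24 and 48 h and the 16.7%, 16.9% and 21.0% that were lower, and no list was tested against them. Of 30 translation factors and other genes with TOP mRNAs, 10 were higher and 5 lower at 6 h, 10 and 3 at 24 h, and 18 and 4 at 48 h. The shares higher, 33.3% at 6 and at 24 h, were near those of all genes, and 60% were higher at 48 h, with a median difference of 0.19. EEF1A2, the neuron and muscle form of the elongation factor that brings tRNA to the ribosome, rose from 7.0 ± 0.087 to 7.78 ± 0.0236 at 6 h and 8.22 ± 0.0744 at 48 h (SD, n = 4), by 0.79 ± 0.0519 and 1.23 ± 0.0519 (adjusted p = 1.13e-09 and 2.94e-12). EIF4B, a cofactor of the initiation helicase, rose by 0.40 ± 0.0426 at 6 h and 0.65 ± 0.0426 at 48 h (adjusted p = 6.54e-07 and 8.96e-10). These genes and the ribosomal protein genes lie at different heights of the scale, so their sizes of change are not on equal terms either.

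Of 8 transcripts tested that host small nucleolar RNAs, 6, 5 and 7 were higher at the 3 times (75%, 62.5% and 87.5%) and none was lower, with medians of 0.30, 0.26 and 0.54 and a lowest difference of -0.1675, at 24 h. EPB41L4A-AS1 rose by 0.69 ± 0.0595 at 6 h and 1.14 ± 0.0595 at 48 h (adjusted p = 3.77e-08 and 4.12e-11), and SNHG7 by 0.34 ± 0.0509 and 0.81 ± 0.0509 (adjusted p = 2.54e-05 and 4.57e-10). Such host RNAs are TOP transcripts too and are degraded when translated. EPB41L4A-AS1 and other antisense RNAs overlap or adjoin another gene, and the strand of the probes was not checked.

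Of 54 biogenesis factors, 8 were higher and 7 lower at 6 h, 11 and 6 at 24 h, and 23 and 4 at 48 h. The shares higher were 14.8%, 20.4% and 42.6%. HEATR1, a factor for transcription and early processing of ribosomal RNA, fell by 0.50 ± 0.0592 at 6 h (adjusted p = 1.84e-06) and was 0.16 below untreated at 48 h (adjusted p = 0.0267). PPAN, a factor for the large subunit, rose at 48 h by 0.62 ± 0.0492 (adjusted p = 9.66e-09). Of 15 genes of the RNA polymerase I machinery, 7, 5 and 10 were higher (46.7%, 33.3% and 66.7%) and 1, 1 and 0 lower, among them POLR1D, a subunit shared by polymerases I and III (0.71 ± 0.0543 at 48 h, adjusted p = 6.32e-09) and TAF1D, a subunit of its promoter factor (0.88 ± 0.0827, adjusted p = 8.02e-08).

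Of 23 genes around mTOR and LARP1, 11 were higher and 2 lower at 6 h, 10 and 1 at 24 h, and 11 and 3 at 48 h. In either direction 56.5%, 47.8% and 60.9% were called, near the 53.3%, 52.1% and 57.0% of all genes. RRAGD, a GTPase that ties mTOR to the lysosome, rose by 1.00 ± 0.0566 at 6 h and 1.56 ± 0.0566 at 48 h (adjusted p = 1.42e-10 and 4.76e-13), and SESN1, a restraint on mTOR, by 0.61 ± 0.0445 and 0.35 ± 0.0445 (adjusted p = 4.38e-09 and 2.92e-06). Of 10 dedicated chaperones of ribosomal proteins, 3, 2 and 3 were higher (30%, 20% and 30%) and 1, 1 and 0 lower, among them PDCD2, an escort of RPS2 (0.38 and 0.505 at 6 and 48 h, adjusted p = 2.73e-05 and 7.1e-07), and its relative PDCD2L (0.315 and 0.38, adjusted p = 0.000343 and 4.15e-05).

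Mitochondrial ribosomal proteins, which build a separate ribosome, were given the same test: of 76, 24 were higher and 5 lower at 6 h, 20 and 5 at 24 h, and 25 and 12 at 48 h. The shares higher, 31.6%, 26.3% and 32.9%, and lower, 6.58%, 6.58% and 15.8%, were under those of all genes. MRPL30 rose by 0.35 ± 0.0377 at 6 h (adjusted p = 6.01e-07) and MRPS30 by 0.66 ± 0.0481 at 48 h (adjusted p = 3.02e-09). FAU and RPL36AL, cytosolic ribosomal protein genes whose symbols the choice did not take in, differed by 0.055 and 0.0375 at 6 h and 0.05 and -0.0075 at 48 h, with no call.

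**Figure D5:**
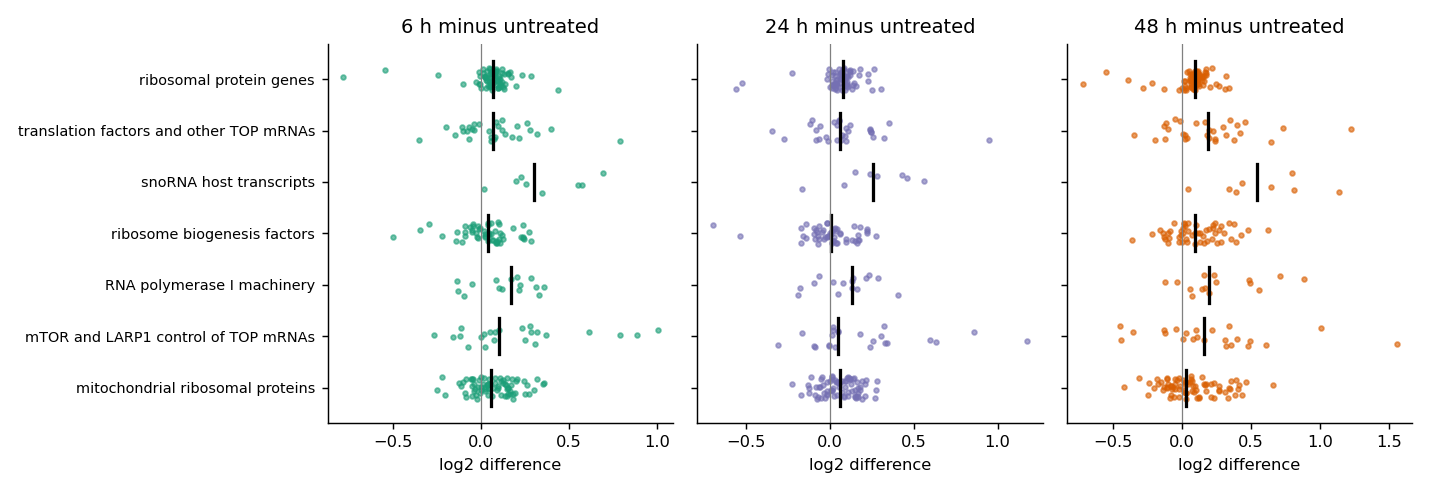
Difference from untreated (log2) for single genes (points) of the ribosomal proteins and 6 related lists, with the median as a bar. Most ribosomal protein genes crowd just above 0, with RPL22L1, RPS27L and RPL26L1 below, and the snoRNA host transcripts have the highest median, 0.54 at 48 h.

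Markers of cell identity differed between untreated and treated cultures as well. SK-N-SH mixes neuroblast-like adrenergic cells with flat mesenchymal ones, and of 15 mesenchymal markers 14 were lower at each time and 1, TWIST1, was higher at 48 h, with medians of -3.51, -3.27 and -3.51. The mean level of the 15 was 9.48 to 9.7 in untreated arrays and 6.31 to 6.72 in all treated arrays. FOXD1 went from 8.91 ± 0.203 to 3.88 ± 0.0716 and COL6A3 from 8.76 ± 0.124 to 4.55 ± 0.177 at 6 h (SD, n = 4). Of 10 adrenergic markers, 10, 9 and 9 were higher, with a mean level of 10.1 to 10.2 in untreated and 10.6 to 10.9 in treated arrays, among them DBH (1.16 ± 0.0666 at 6 h) and EYA1 (1.31 ± 0.0456).

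In RNA from whole cultures, fewer cells of a type and less RNA per cell cannot be told apart, for the paralogs as for the markers. A shift during exposure likewise cannot be told apart from untreated cultures that held another mix of cells from the start. The part of this marker difference in the falls of RPL22L1, RPS27L and RPL26L1, and in the small rises, was not tested. Markers of blood cells were dim: of 5 genes CD3E (3.59 in untreated arrays) and HBB (4.39) were tested and not called, and PTPRC, CD14 and LYZ were under the limit. Of epithelial markers KRT18 was well above the dim limit, at 9.8 in untreated arrays, and fell by 4.07 at 6 h. KRT8 (4.02) fell too, with EPCAM at 4.37 and CDH1 under the limit. Of Schwann cell markers S100B rose from 5.32 by 0.605 at 6 h, and SOX10 (3.75) was called higher at 24 h only, by 0.27.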

How the data were processed

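Total RNA of 16 SK-N-SH samples was measured on 1-colour arrays. The authors deposited log2 values per probe set, made with RMA per the submitters' processing notes, which corrects background, equalises intensity distributions between arrays and summarises probes; the software is not given in the sources used here. Equalised distributions hide a change in total RNA per cell. The table held 49386 probe sets, 45253 with a single gene symbol in the platform annotation (1327 with several, 2713 with none, 93 controls), and 9 with several symbols that include a ribosomal protein gene were left out. All 74 symbols matched RefSeq by Entrez identifier. The dimmest 25% of 18239 genes, by mean, were not tested, leaving 13680 at 3.65 or above.

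One limma fit (version 3.58.1, R 4.3.3; lmFit and eBayes) held all arrays with a mean for each of the 4 groups. P-values are two-sided and were adjusted by the Benjamini-Hochberg method over all genes tested, within each of 6 contrasts. No set test was run. The fit was tested on simulated data. The number of arrays, 4 a group, limits the precision.

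The genes, lists and tests were chosen with earlier results of these data known. Named genes were the 8 largest rises and falls past the threshold without overlap of the arrays in each contrast with untreated, the 4 largest in each direction between times, the 3 brightest and 3 dimmest, the paralog pairs and a fixed set of ribosomal protein genes, and the 2 smallest p in each other list. Alternatives were the mean or the dimmest over the probe sets of a gene, other filters on dim genes, 4 other scalings, eBayes options, array weights, a replicate block, only the arrays compared, and leaving out each array. Pairs of arrays shared at most 4.55% equal values, and correlations within groups were 0.996 to 0.999.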

Additional observations from a re-analysis of the deposited data

Results flagged for a closer look

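Single arrays stood apart within their group for some ribosomal protein genes: the gap to the nearest array, over the range of the group, passed Dixon's critical value for 4 values in 9 of 148 groups, where chance gives about 1 in 20. Untreated replicate 2 was high for RPL10 (13.29, next 13.19), and untreated replicate 3 was low for RPL23 (12.71, next 12.8) and for RPS9 (12.3, next 12.37). At 6 h replicate 4 was low for RPL22L1 (11, next 11.19). At 24 h replicate 3 was high for RPL13A by the smallest step of the table (13.68, the others at 13.67), and replicate 1 was high for RPL3L (3.63, next 3.5). At 48 h replicate 2 was low for RPL3L (3.39, next 3.6). At 48 h replicate 4 was low for RPL34 (13.24, next 13.35) and for the median of the ribosomal protein genes (13.33, next 13.39).

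RPL27A, on its single probe set at a mean of 7.14, differed from untreated in opposite directions at different times. It was higher at 6 and 24 h and lower at 48 h. The difference itself was tested with limma: 48 h minus 6 h was -0.7225 (adjusted p = 2.45e-06) and 48 h minus 24 h was -0.5175 (adjusted p = 8.78e-05), with no overlap between the 48 h arrays and those of the other exposure times.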

How the results depend on the processing

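The falls kept their direction and mostly their count: 3 to 4 at 6 h, 3 at 24 h and 5 to 8 at 48 h over all alternatives. The rises did not. Counts of ribosomal protein genes higher at 6, 24 and 48 h than untreated, 16, 16 and 28 as reported, became 6, 6 and 18 with array medians subtracted, 10, 9 and 10 with quantile normalization applied again, 5, 4 and 17 centred on the brightest 10%, 34, 38 and 45 with eBayes trend and robust options, and 10, 10 and 16 with only the 8 arrays compared. They became 5 and 5 at 6 and 24 h after cyclic loess, 35 and 36 with the mean over a gene's probe sets, and 26 at 24 h with the dimmer 50% left out. The dimmest probe set past the filter gave 8 lower at 48 h. Why the counts moved was not tested.

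Median differences of 0.0675, 0.0775 and 0.09 became 0.019, 0.0186 and 0.0284 with quantile normalization applied again and 0.015, 0.0263 and 0.055 on the brightest 10%; they became 0.0221 and 0.0303 at 6 and 24 h after cyclic loess, and 0.11 at 6 h with the dimmest probe set. Between times, 1 gene was higher at 24 h than 6 h with the dimmer 50% left out, quantile normalization, cyclic loess, the brightest 10%, trend and robust options, and array weights, which also gave 1 lower. Higher at 48 h than 24 h were 4 with the mean of probe sets, 3 with the dimmest, and 2 with cyclic loess, trend and robust options, or array weights. Higher at 48 h than 6 h were 8, 5, 4, 4, 9, 6, 8 and 5 with the mean of probe sets, the dimmest probe set, the dimmer 50% left out, quantile normalization, cyclic loess, the brightest 10%, trend and robust options, and array weights. The dimmest probe set also gave 8 lower at 48 h than 24 h and 7 lower at 48 h than 6 h.

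Leaving out each array in turn gave 10 to 20, 10 to 21 and 19 to 33 genes higher than untreated, 1 to 2 higher at 48 h than 24 h and 2 to 5 higher at 48 h than 6 h.

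Replicate numbers are shared between groups, but 8 of 24 same-number pairs had a correlation of deviations over 0.1 (-0.152 to 0.181) and 5 of 16 arrays correlated best with their own number, so the numbers were not taken as pairs. With the number as a block, 1 gene was higher at 24 h than 6 h, and the other counts stayed within 1.5 times.

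Of single named genes, 18 comparisons reversed, all on changing the probe set. With the mean of probe sets these were RPL3 at 6 h (-0.01), RPL39 at 6 h (0.10) and 48 h (0.12), RPL10 at 24 h (-0.0021), RPL35A at 48 h (0.11) and RPL7L1 from 24 to 48 h (-0.026). With the dimmest probe set they were RPL10 at 6 h (-0.0075) and 24 h (-0.0275), RPL3 at 6, 24 and 48 h (-0.225, -0.15 and -0.085), RPL39 at 6 and 48 h (0.215 and 0.26), RPL35A at 24 h (-0.045), RPL4 at 24 h (-0.04), RPL7L1 at 24 and 48 h (-0.015 and -0.0375) and RPL7L1 from 24 to 48 h (-0.0225). The dimmest probe sets of RPL3, RPL4, RPL35A and RPL7L1 had means of 3.86, 3.855, 3.68 and 3.78, close to the lowest level tested. Those of RPL10 and RPL39 had means of 7.5 and 12.5. Reversed means a change of sign where either fit made a call. Reversals happened on no left-out array and under no scaling or fit option tried. Differences called in neither fit also changed sign, 8 on changing the probe set, 12 on leaving out an array and 47 otherwise, such as RPL22 with quantile normalization applied again (-0.012, -0.0077 and -0.036 at 6, 24 and 48 h). Of the other gene comparisons without an array left out, 159 were no longer called and 72 were newly called. Values near the top of the scale may limit the sizes of change given for the bright genes, and by how much was not tested.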
